A study of Mus musculus with 19 samples.

Results

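The nuclear lamina and the linkers that join it to the cytoskeleton were described across CD44high and CD44low regulatory T cells (Tregs) of uninjured and injured mice. The 10 genes were LMNA, LMNB1, LMNB2, SUN1, SUN2, SYNE1, SYNE2, SYNE3, EMD and LBR. They were chosen by symbol for their function from the 24982 genes of the count table, and all 10 passed the filter on low counts that 11464 genes passed. The set was proposed with differences of these same counts between the 4 groups already known. The values below, p-values included, were therefore chosen on the readout they describe, set each difference beside the spread between libraries, and are not independent evidence.

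The lamina is a mesh of intermediate filaments under the inner nuclear membrane. A-type lamins, both spliced from LMNA, add stiffness to the nucleus, whereas the B-type lamins, encoded by LMNB1 and LMNB2, stay bound to the membrane by a lipid anchor. The LINC complex crosses the nuclear envelope: SUN proteins of the inner membrane bind the lamina and, in the space between the membranes, hold nesprins (SYNE genes) of the outer membrane, which reach actin, microtubule motors or intermediate filaments. LBR, the lamin B receptor, and EMD, emerin, are inner membrane proteins that tie chromatin to the lamina. Resting lymphocytes are known for low A-type lamin, and blood cells in general for high LBR.

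Bulk RNA-seq had been done on 19 samples of Tregs (CD4+FoxP3-GFP+ cells) sorted from the axillary, brachial and inguinal lymph nodes that drain the site of a burn. All mice were Foxp3DTR, a strain in which the Foxp3 gene also drives the diphtheria toxin receptor and green fluorescent protein. The labels name no toxin, sex or age for these samples. The groups were CD44high (n = 4) and CD44low (n = 5) Tregs of uninjured mice, which had sham treatment, and CD44high (n = 4) and CD44low (n = 6) Tregs of mice taken 7 days after a burn, with RNA from 50000 cells per sample. CD44 is an adhesion receptor that is high on activated T cells. The labels do not say whether a sample came from 1 mouse or from a pool, so the p-values measure only the spread between these samples, which may be partly technical. For 3 of the injured CD44low libraries (1_2, 4_2 and 5_2) the labels hold a further number, without its meaning.

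Library totals over all genes ran from 5582234 to 9433610 counts. Levels are given as CPM, counts scaled to each library's total over the genes that passed the filter, times its TMM factor (0.970 to 1.04). Adjusted p-values come from the quasi-likelihood test of edgeR across all genes tested, and a gene was called at an adjusted p under 0.05. That test shares 1 estimate of each gene's spread across the 4 groups, although the groups were not equally uniform. The mean chi-square per gene between the counts of 2 libraries of a group was 4.96 to 14.3 in uninjured and 5.68 to 41.3 in injured mice. All 7 T cell and Treg markers searched were detected in each group, with summed levels of 3851 to 5190 CPM. Genes of proliferation, a list of 10, summed to between 749 and 975 CPM in CD44high and between 31.4 and 52.5 CPM in CD44low Tregs of uninjured mice, and to between 496 and 599.5 and between 42.3 and 71.4 CPM after injury. All 10 were higher in CD44high Tregs in both comparisons of the CD44 classes. The 8 markers of macrophages and dendritic cells summed to between 76.0 and 150.3 CPM in CD44high and 19.8 to 40.0 CPM in CD44low Tregs of uninjured mice, and to between 99.1 and 247 and between 33.8 and 157 CPM after injury. Of these 8, all were higher in CD44high Tregs of uninjured mice and 2 in injured mice, and none was at 0 throughout a group. After injury, LYZ2 and ITGAM rose in CD44low Tregs (log2 1.27 and 3.87, adjusted p = 0.0301 and 0.00873, edgeR) and the other 6 were not called. In CD44high Tregs 0 of the 8 were called after injury. The 6 B cell markers summed to between 73.3 and 216 CPM over all libraries. CD79B was higher in CD44high Tregs of uninjured mice (log2 0.84, adjusted p = 0.000370, edgeR). The other 5 B cell markers were not called there, with PAX5 at log2 -1.38. The 5 CD8 and NK cell markers summed to between 46.4 and 73.0 CPM. Of these 5, KLRB1C, an NK cell receptor, was higher in CD44high Tregs of uninjured and injured mice (log2 3.63 and 2.44, adjusted p = 0.000125 and 0.000195, edgeR) and rose after injury in CD44low Tregs (log2 3.00, adjusted p = 0.00873, edgeR). The other 4 were not called in these comparisons. Between CD44 classes of uninjured and injured mice, NCR1 was at log2 2.14 and 1.43 and EOMES at -1.18 in both. CD8A was at -0.21 and 0.39, and CD8B1 at -0.13 and -0.05. Of the 5 neutrophil markers, LY6G and MPO were at 0 in both uninjured groups and in injured CD44low Tregs, and the sum was at most 1.69 CPM in uninjured and 32.4 CPM in injured mice. S100A9 rose after injury in CD44high and CD44low Tregs (log2 6.13 and 5.28, adjusted p = 0.0496 and 0.0241, edgeR), and S100A8 was at log2 5.97 and 3.71 (adjusted p = 0.101 and 0.0734, edgeR). The 8 stromal and endothelial markers summed to between 59.3 and 231 CPM, mostly PECAM1, with PDGFRA at 0 in all groups. Of these 8, 2 passed the filter. COL1A1 was higher in CD44high Tregs of uninjured and injured mice (log2 4.92 and 2.496, adjusted p = 6.2e-05 and 0.00534, edgeR). Its means there were 2.36 and 1.503 CPM, against 0.0568 and 0.263 CPM in CD44low Tregs. PECAM1 was lower in CD44high Tregs (log2 -1.73 and -0.976, adjusted p = 5.2e-10 and 2.44e-06, edgeR). It rose after injury in CD44high Tregs (log2 0.689, adjusted p = 0.0075, edgeR). The part of other cells and of cell cycling in the results below was not tested, and in bulk samples fewer cells with a transcript and less of it per cell cannot be told apart.

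LMNA and SUN2 had the largest differences between CD44 classes in uninjured mice, in opposite directions. A start-site window of each is shown because these genes carry the main contrast. Counts per gene do not show which start site was used. The sequences are RefSeq windows on build GRCm38.p6, from 250 bases before to 50 bases after a start site, read on the minus strand, at chr3:88503303-88503602 for LMNA and chr15:79742487-79742786 for SUN2. Capitals mark matches on either strand to TGANTCA, the letters bound by AP-1 factors, and GGGCGG, the GC box of SP1-type factors. Matches to the 2 motifs did not overlap each other.
LMNA: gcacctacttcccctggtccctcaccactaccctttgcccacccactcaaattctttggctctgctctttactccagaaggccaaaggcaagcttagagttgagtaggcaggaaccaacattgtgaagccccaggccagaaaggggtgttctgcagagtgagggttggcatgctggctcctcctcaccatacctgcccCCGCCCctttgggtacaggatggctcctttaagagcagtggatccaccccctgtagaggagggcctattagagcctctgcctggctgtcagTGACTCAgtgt
SUN2: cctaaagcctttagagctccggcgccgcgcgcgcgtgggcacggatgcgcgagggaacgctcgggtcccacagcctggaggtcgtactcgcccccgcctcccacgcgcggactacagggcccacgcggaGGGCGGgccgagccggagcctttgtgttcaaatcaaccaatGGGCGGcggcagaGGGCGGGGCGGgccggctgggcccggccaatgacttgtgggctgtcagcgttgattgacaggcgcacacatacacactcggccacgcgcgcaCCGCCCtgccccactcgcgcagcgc
The LMNA window held 1 match to TGANTCA, at position 39 from the start site, 1 to GGGCGG, at position -52, and 1 CpG, with 56.3% G and C. The reference lists another LMNA start site, at chr3:88493263-88493562, whose window held neither motif and 7 CpG. The RefSeq LMNA gene extends beyond the printed window, so a further start site may exist that was not searched. The SUN2 window held no TGANTCA, 5 matches to GGGCGG and 39 CpG, with 71.3% G and C. Of 32851 windows of this length in the reference, 7.81% held TGANTCA and 35.7% held GGGCGG, the median had 7 CpG, 14.1% had 1 CpG or fewer and 4.45% had 39 or more. LMNB1 was not among the members searched. Of the others searched, only LBR held TGANTCA, with 1 match. These matches describe letters and not binding.

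In uninjured mice, the question was how the CD44 classes of Tregs differ. LMNA had 301, 387, 351 and 326 CPM in the 4 CD44high libraries and 17.2, 11.2, 15.9, 16.7 and 8.44 CPM in the 5 CD44low libraries. Every CD44high library lay far above every CD44low library. The difference was 24.4-fold (log2 4.61 ± 0.21, SE, adjusted p = 2.25e-14, edgeR). LMNB1 had 190.4, 221, 302 and 294 CPM in CD44high and 65.3, 49.8, 59.2, 67.4 and 54.0 CPM in CD44low libraries, again without overlap. It was 4.25-fold higher in CD44high Tregs (log2 2.09 ± 0.24, SE, adjusted p = 1.47e-07, edgeR). LMNB2, the other B-type lamin, had 21.8 to 39.5 CPM in CD44high and 29.1 to 36.1 CPM in CD44low libraries. Its groups overlapped and the log2 difference was -0.06 ± 0.17 (SE, adjusted p = 0.805, edgeR). The A-type lamin and 1 of the B-type lamins were thus higher, and no difference was found for the other.

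**Figure D1:**
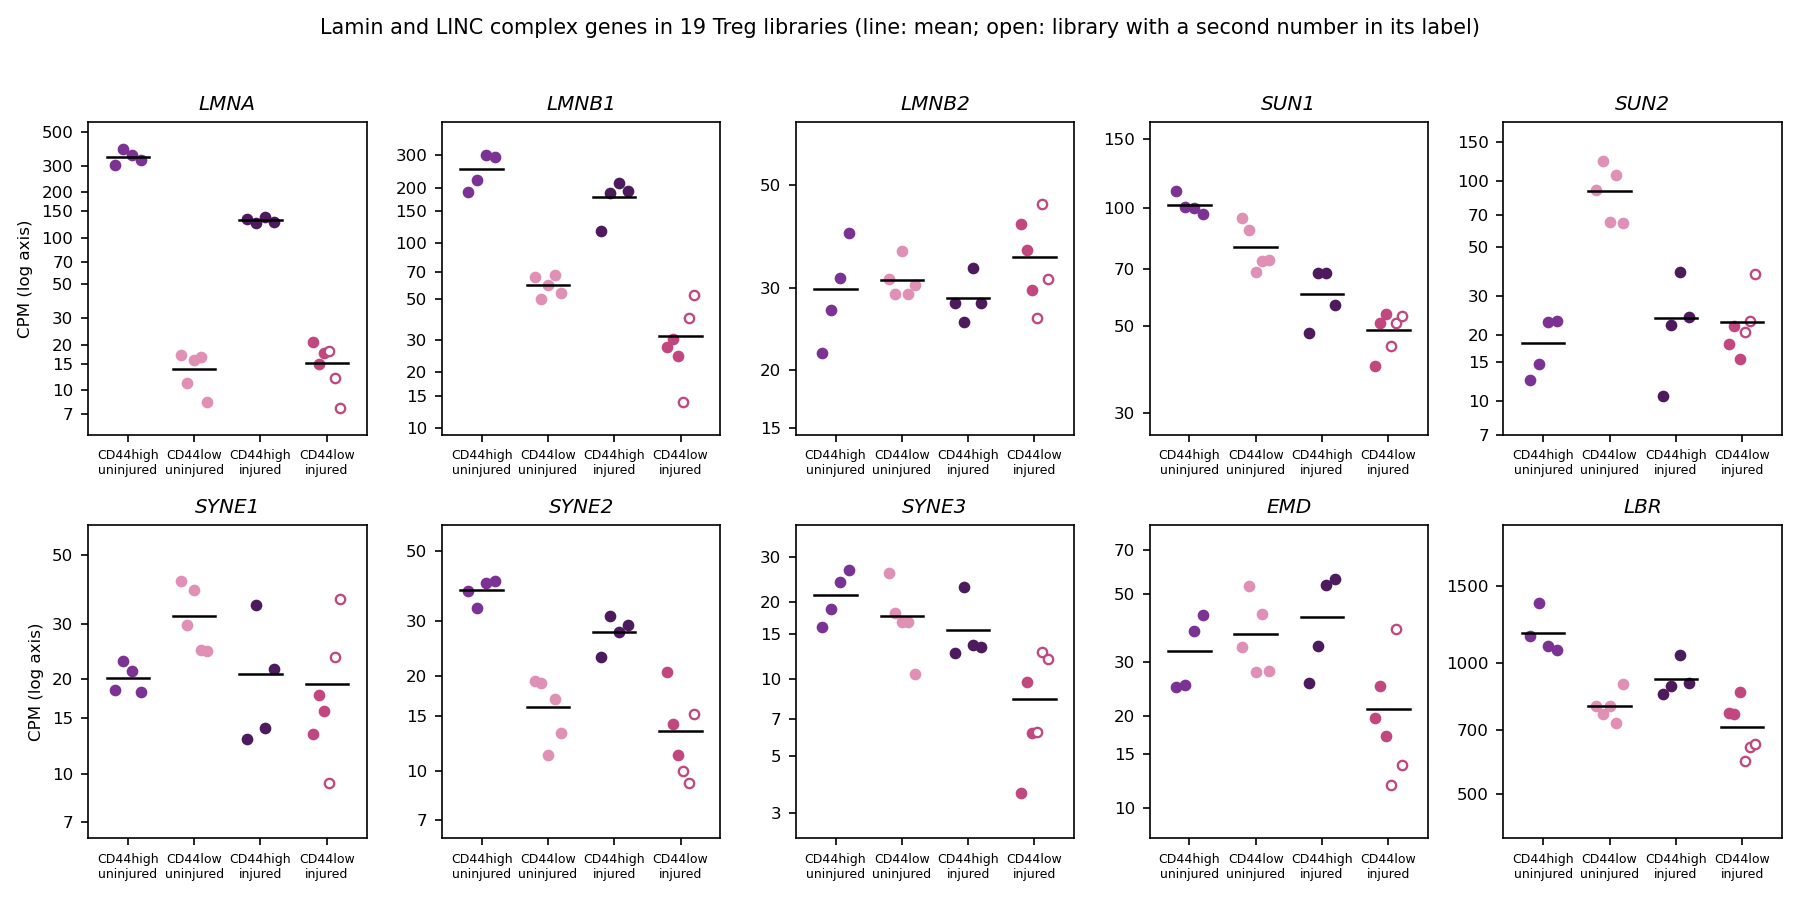
CPM of the 10 genes in each of 19 libraries, on log axes that differ between panels, by CD44 class and injury; lines are group means and open points are the 3 injured CD44low libraries with a second number. LMNA lies between 301 and 387 CPM in uninjured CD44high libraries and between 8.44 and 17.2 CPM in uninjured CD44low libraries, and SUN2 is highest in uninjured CD44low libraries, at 64.7 to 124 CPM.

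The SUN genes went opposite ways. SUN2 had 12.5, 14.8, 22.9 and 23.0 CPM in CD44high and 91.3, 124, 65.3, 107 and 64.7 CPM in CD44low libraries of uninjured mice. All 5 CD44low libraries lay above all 4 CD44high libraries, and SUN2 was 4.91-fold lower in CD44high Tregs (log2 -2.30 ± 0.31, SE, adjusted p = 1.67e-06, edgeR). SUN1, which pairs with the same nesprins, had 111, 101, 100.1 and 96.7 CPM in CD44high and 94.6, 87.8, 68.6, 73.4 and 73.8 CPM in CD44low libraries. Its groups came close but did not overlap, and it was 1.28-fold higher in CD44high Tregs (log2 0.36 ± 0.13, SE, adjusted p = 0.0243, edgeR). That call was lost without CD44high library 2 (adjusted p = 0.0848, edgeR) and without CD44low library 3, 4 or 5 (adjusted p = 0.0701, 0.0572 and 0.0559, edgeR).

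Of the nesprins, SYNE2, a giant protein that binds actin and microtubule motors, was higher in CD44high Tregs. It had 37.4, 33.1, 39.5 and 40.2 CPM in CD44high and 19.4, 19.1, 11.2, 17.0 and 13.2 CPM in CD44low libraries. The groups stood apart by 2.35-fold (log2 1.24 ± 0.20, SE, adjusted p = 2.91e-05, edgeR). Because SYNE2 is very long, each library's trend on transcript length was also taken out, which gave a log2 difference of 1.88. SYNE1, the other giant nesprin, had 18.2 to 22.9 CPM in CD44high and 24.6 to 41.4 CPM in CD44low libraries. The ranges did not overlap, but its log2 difference of -0.66 ± 0.31 did not pass the test (SE, adjusted p = 0.0853, edgeR). Without CD44low library 5_2 of injured mice, which changes the shared estimate of the spread, adjusted p was 0.0421 (edgeR). SYNE1 was also called with only the groups compared (adjusted p = 0.00585, edgeR), with libraries 1 and 1_2 and 5 and 5_2 summed (adjusted p = 0.0454, edgeR) and without the 3 second-number libraries (adjusted p = 0.0280, edgeR), whereas without the trend on length the log2 difference was -0.01. SYNE3, which reaches intermediate filaments through plectin, had 16.0 to 26.7 CPM in CD44high and 10.5 to 26.1 CPM in CD44low libraries (log2 0.28 ± 0.29, SE, adjusted p = 0.455, edgeR).

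Of the inner membrane proteins, LBR had 1149.6, 1371, 1091 and 1068 CPM in CD44high and 797, 763, 795, 727 and 894 CPM in CD44low libraries of uninjured mice. It was the most abundant member in every library, and was 1.47-fold higher in CD44high Tregs without overlap (log2 0.56 ± 0.11, SE, adjusted p = 0.000174, edgeR). EMD had 24.8 to 42.6 CPM in CD44high and 27.8 to 53.3 CPM in CD44low libraries, and these ranges overlapped (log2 -0.18 ± 0.29, SE, adjusted p = 0.637, edgeR). In all, 5 of 10 members were higher and 1 was lower in CD44high Tregs of uninjured mice. Among the 11464 genes tested, 24.7% were higher and 21.3% lower. The median log2 difference was 0.32 over the members and 0.01 over all genes.

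**Figure D2:**
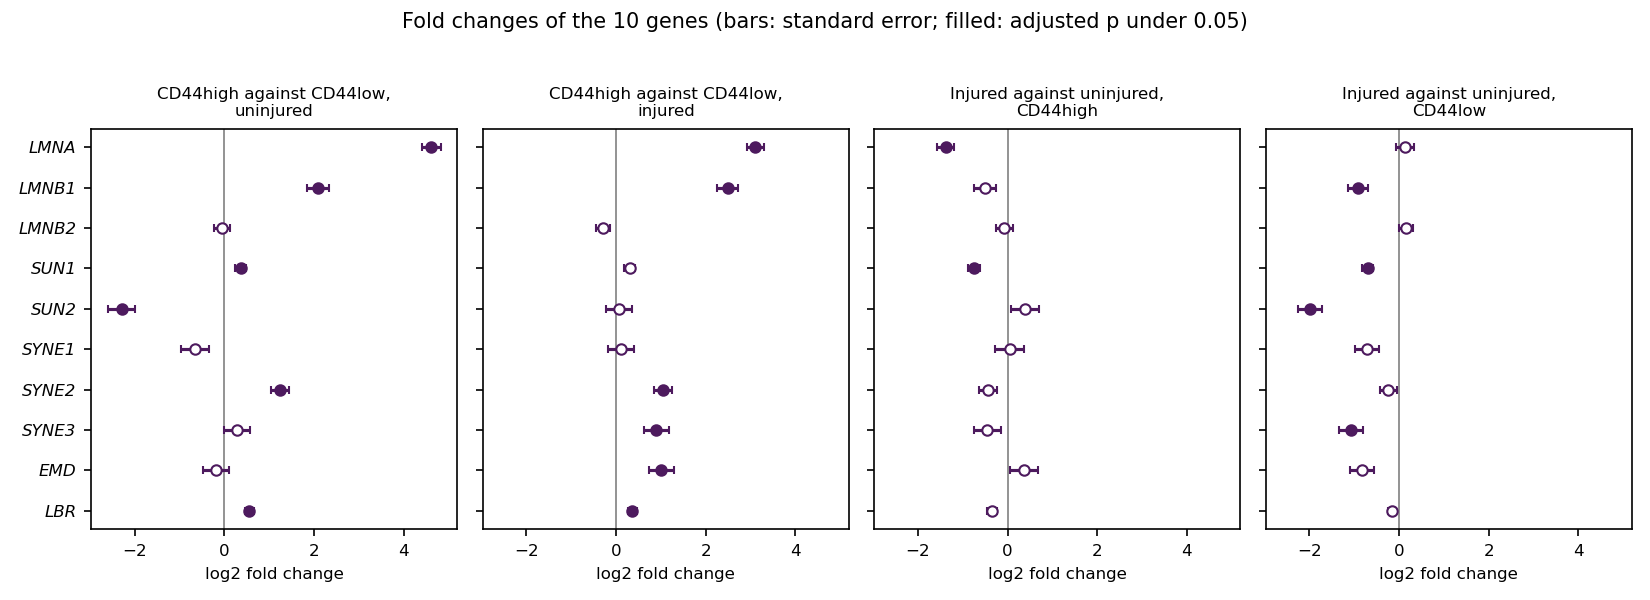
Log2 fold changes of the 10 genes in the 4 comparisons; points are estimates from the fit across all genes, bars are standard errors, and filled points have an adjusted p under 0.05. LMNA is at 4.61 and SUN2 at -2.30 in uninjured mice, and after injury LMNA falls by 1.38 in CD44high and SUN2 falls by 1.99 in CD44low Tregs.

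In injured mice, the CD44 classes still differed in the lamins. LMNA had 134, 125, 137 and 127 CPM in the 4 CD44high libraries, and the 6 CD44low libraries ran from 7.65 through a median of 16.2 to 20.8 CPM. The groups were 8.59-fold apart (log2 3.10 ± 0.19, SE, adjusted p = 5.42e-12, edgeR). LMNB1 had 117, 188, 212 and 191 CPM in CD44high libraries against 13.8 to 52.7 CPM, with a median of 28.9 CPM, in CD44low libraries. It was 5.63-fold higher in CD44high Tregs, without overlap (log2 2.49 ± 0.23, SE, adjusted p = 6.90e-09, edgeR). LMNB2 had 25.4 to 33.2 CPM in CD44high and 25.9 to 45.7 CPM in CD44low libraries and did not pass the test (log2 -0.29 ± 0.17, SE, adjusted p = 0.175, edgeR).

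SUN2 no longer separated the CD44 classes after injury. It had 10.5, 22.0, 38.6 and 24.1 CPM in CD44high libraries and 15.5 to 37.7 CPM, with a median of 21.2 CPM, in CD44low libraries. The groups overlapped throughout (log2 0.07 ± 0.28, SE, adjusted p = 0.872, edgeR), and the sign of the difference turned when single libraries were left out. SUN1 had 48.1, 68.2, 68.4 and 56.5 CPM in CD44high and 39.6 to 53.6 CPM in CD44low libraries (log2 0.31 ± 0.12, SE, adjusted p = 0.0545, edgeR). It passed without CD44high library 2 (adjusted p = 0.0243, edgeR) and with the trend on length or on GC content taken out (adjusted p = 0.0206 and 0.0425, edgeR).

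SYNE2 was higher in CD44high Tregs of injured mice too, with 23.0, 31.1, 27.6 and 29.2 CPM against 9.17 to 20.7 CPM in CD44low libraries. The groups were 2.06-fold apart without overlap (log2 1.04 ± 0.20, SE, adjusted p = 0.000167, edgeR). SYNE3 had 12.6 to 23.0 CPM in CD44high and 3.57 to 12.8 CPM in CD44low libraries and was 1.87-fold higher (log2 0.90 ± 0.29, SE, adjusted p = 0.0162, edgeR). The groups overlapped slightly, and the call was lost without CD44high library 3, the highest (adjusted p = 0.0975, edgeR), and with the second-number libraries as the only CD44low libraries (log2 0.57, adjusted p = 0.153, edgeR). SYNE1 ranged from 12.9 to 34.6 CPM in CD44high and from 9.31 to 36.2 CPM in CD44low libraries, a wide overlap (log2 0.11 ± 0.29, SE, adjusted p = 0.805, edgeR).

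EMD was 2.02-fold higher in CD44high Tregs of injured mice, with 25.6, 33.8, 53.6 and 55.9 CPM against 11.9 to 38.3 CPM (log2 1.01 ± 0.28, SE, adjusted p = 0.00571, edgeR). The overlap came from 1 CD44low library, 4_2, at 38.3 CPM. LBR had 848, 885, 1039 and 900.1 CPM in CD44high and 596 to 859 CPM in CD44low libraries, ranges that overlapped slightly, and was 1.29-fold higher (log2 0.36 ± 0.10, SE, adjusted p = 0.00714, edgeR). The 3 CD44low libraries with a second number were its 3 lowest, and without them the log2 difference was 0.20 and was not called (adjusted p = 0.125, edgeR). In all, 6 members were higher and 0 lower in CD44high Tregs of injured mice at adjusted p under 0.05 by edgeR, while 20.1% of all genes tested were higher and 17.2% lower. No member was lower at an unadjusted p under 0.05 either. The median log2 difference was 0.63 over the members and -0.00 over all genes.

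The comparison of injured with uninjured mice asked what the burn changed within each class. In CD44high Tregs, LMNA fell 2.61-fold, from 301 to 387 CPM in uninjured to 125 to 137 CPM in injured mice (log2 -1.38 ± 0.20, SE, adjusted p = 0.000217, edgeR). The 4 injured libraries lay close together and all below the 4 uninjured ones, yet above all CD44low libraries. SUN1 fell 1.69-fold, from 96.7 to 111 CPM to 48.1 to 68.4 CPM, also without overlap (log2 -0.76 ± 0.14, SE, adjusted p = 0.00219, edgeR). SYNE2 and LBR did not overlap between injured and uninjured mice either, both being lower after injury, but neither passed the test. Their log2 differences were -0.44 ± 0.21 (SE, adjusted p = 0.327, edgeR) for SYNE2 and -0.35 ± 0.11 (SE, adjusted p = 0.113, edgeR) for LBR. LBR was called without the second-number libraries (adjusted p = 0.0293, edgeR) and with libraries 1 and 1_2 and 5 and 5_2 summed (adjusted p = 0.0388, edgeR). The other 6 members overlapped, with log2 differences from -0.51 for LMNB1 to 0.38 for SUN2. The share of all genes without overlap is not given for any comparison, so lack of overlap only describes these libraries. Thus 0 members rose and 2 fell after injury in CD44high Tregs by edgeR, against 1.06% of all genes tested that rose and 1.33% that fell. No member rose at an unadjusted p under 0.05.

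In CD44low Tregs, LMNA had 8.44 to 17.2 CPM in uninjured and 7.65 to 20.8 CPM in injured mice, with no detected change (log2 0.13 ± 0.20, SE, adjusted p = 0.725, edgeR). SUN2 had the largest change of the members: it fell 3.96-fold, from 64.7 to 124 CPM to 15.5 to 37.7 CPM, without overlap (log2 -1.99 ± 0.26, SE, adjusted p = 8.84e-05, edgeR). After injury, its level in CD44low Tregs lay in the range of the CD44high groups. SUN1 fell 1.63-fold, from 68.6 to 94.6 CPM to 39.6 to 53.6 CPM, without overlap (log2 -0.71 ± 0.12, SE, adjusted p = 0.00114, edgeR). Both SUN genes were thus lower after injury in CD44low Tregs, and SUN1 alone of the SUN genes in CD44high Tregs.

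LMNB1 fell 1.88-fold in CD44low Tregs, from 49.8 to 67.4 CPM to 13.8 to 52.7 CPM (log2 -0.91 ± 0.22, SE, adjusted p = 0.0156, edgeR). The overlap came from library 5_2, at 52.7 CPM. SYNE3 fell 2.11-fold, from 10.5 to 26.1 CPM to 3.57 to 12.8 CPM (log2 -1.07 ± 0.27, SE, adjusted p = 0.0206, edgeR), and this call was lost without uninjured library 1 (adjusted p = 0.0768, edgeR). With the 3 injured libraries of a second number as the only injured CD44low libraries, LMNB1 was at -0.71 (adjusted p = 0.143, edgeR) and SYNE3 at -0.75 (adjusted p = 0.150, edgeR), so that both calls were lost.

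EMD did not pass the test for injury in CD44low Tregs, with 27.8 to 53.3 CPM in uninjured and 11.9 to 38.3 CPM in injured mice (log2 -0.83 ± 0.27, SE, adjusted p = 0.0556, edgeR). Without injured library 4_2 the log2 difference was -1.06 and was called (adjusted p = 0.0115, edgeR), as it was without injured CD44high library 2 (adjusted p = 0.0432, edgeR). EMD was also called by DESeq2 (adjusted p = 0.0276), without the second-number libraries (adjusted p = 0.0395, edgeR) and with the trend on length or GC content taken out (adjusted p = 0.0373 and 0.04999, edgeR). SYNE1 had a log2 difference of -0.72 ± 0.27 (SE, adjusted p = 0.0989, edgeR), which was -0.98 and called without injured library 5_2 (adjusted p = 0.0121, edgeR) and -1.02 and called without all second-number libraries (adjusted p = 0.0149, edgeR). LMNB2, SYNE2 and LBR overlapped and were at log2 0.16, -0.25 and -0.16. In all, 0 members rose and 4 fell in CD44low Tregs by edgeR, against 4.24% of all genes tested that rose and 3.36% that fell. No member rose at an unadjusted p under 0.05. The median log2 difference was -0.71 over the members and 0.01 over all genes, and in CD44high Tregs -0.39 and -0.02.

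The difference between the CD44 classes in the change after injury was called for 2 members. For LMNA, the change in CD44high Tregs was lower than that in CD44low Tregs by a log2 difference of -1.51 ± 0.28 (SE, adjusted p = 0.00671, edgeR). For SUN2, it was higher, by 2.37 ± 0.41 (SE, adjusted p = 0.00383, edgeR). In both genes, the gap between CD44high and CD44low Tregs was smaller after injury, for LMNA through a lower level in CD44high and for SUN2 through a lower level in CD44low Tregs. Of all genes tested, 0.192% had a higher and 0.454% a lower change in CD44high Tregs. Of the other 8 members, EMD came next, at 1.19 ± 0.40 (SE, adjusted p = 0.208, edgeR). SUN1 fell in both classes, with a difference between them of -0.05 ± 0.18 (SE, adjusted p = 0.952, edgeR).

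Levels of different genes were compared as CPM per kilobase (kb) of merged GENCODE vM21 exons. LBR led in all 4 groups, at 246 ± 29.1 CPM per kb in CD44high and 167 ± 13.0 in CD44low Tregs of uninjured mice, and 193 ± 17.5 and 149.8 ± 20.9 after injury (SD, n as above), and LMNB1 came next in all 4. LMNA was the third member in both CD44high groups, at 58.4 ± 6.28 CPM per kb before and 22.4 ± 0.934 CPM per kb after injury (SD, n = 4 each). In CD44low Tregs it was the eighth, at 2.38 ± 0.662 (SD, n = 5), and the seventh, at 2.60 ± 0.813 CPM per kb (SD, n = 6). SUN2 was the third member in uninjured CD44low Tregs, at 16.7 ± 4.77 CPM per kb (SD, n = 5), where its range overlapped with those of LMNB1, EMD and SUN1. In the other groups it lay between 3.37 and 4.39 CPM per kb. The giant nesprins SYNE1 and SYNE2 were the lowest per kb in all 4 groups, at 1.41 CPM per kb or less. In uninjured CD44high Tregs, LMNB1 and LMNA, SUN1 and EMD, and SYNE3 and SUN2 were neighbours with overlapping ranges. In injured CD44low Tregs all neighbours below LBR overlapped. With the length of the longest transcript, LBR still led in all 4 groups, followed by LMNB1 and LMNA in both CD44high groups, whereas EMD followed LBR in both CD44low groups, and SUN2 ranked 4 of 10 in uninjured CD44low Tregs.

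Ratios within a library do not depend on its total. LMNA to the sum of LMNB1 and LMNB2, in CPM per kb, was 0.742, 0.820, 0.550 and 0.516 in uninjured CD44high libraries and 0.0570 to 0.100 in uninjured CD44low libraries. After injury it was 0.497, 0.309, 0.296 and 0.307 in CD44high libraries, and 0.0522 to 0.290, with a median of 0.163, in CD44low libraries. On this scale the B-type lamins outweighed the A-type lamin in every library, least in CD44high Tregs of uninjured mice. With the length of the longest transcript in place of merged exons, the ratio was 0.722 to 1.15 in that group, above 1 in 2 of its 4 libraries, and below 1 in all others. LMNB1 to LMNB2 ran from 10.8 to 13.8 and from 6.08 to 10.7 in CD44high Tregs of uninjured and injured mice, and from 2.38 to 3.34 and from 0.772 to 2.43 in CD44low Tregs.

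SUN1 to SUN2 was 6.33, 4.88, 3.12 and 3.00 in CD44high and 0.739, 0.506, 0.749, 0.492 and 0.814 in CD44low libraries of uninjured mice. Every uninjured CD44low library lay below 1 and below all other libraries, including those after injury. Which SUN gene led in uninjured CD44low Tregs depended on the length used, since with the longest transcript the ratio ran from 0.736 to 1.22, above 1 in 3 of 5 libraries, while it stayed above 1 in all libraries of the other groups. After injury the ratio was 3.27, 2.21, 1.27 and 1.67 in CD44high libraries and 1.01 to 2.46, with a median of 1.57, in CD44low libraries. LBR to LMNA ran from 3.81 to 4.69 and from 7.78 to 9.30 in CD44high Tregs before and after injury, and from 53.5 to 129.9 and from 40.3 to 104 in CD44low Tregs.

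**Figure D3:**
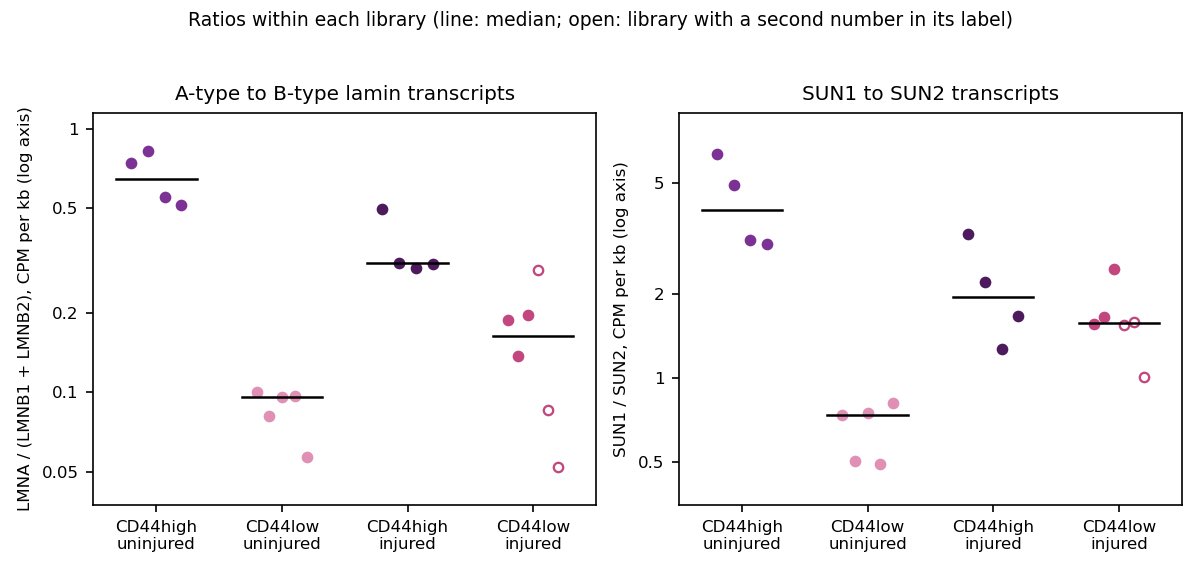
Ratio of LMNA to the sum of LMNB1 and LMNB2 (left) and of SUN1 to SUN2 (right), from CPM per kb on log axes, in each of 19 libraries by CD44 class and injury; lines are group medians and open points are libraries with a second number. The A-type to B-type ratio has a median of 0.646 in uninjured CD44high and 0.0959 in uninjured CD44low libraries, and SUN1 to SUN2 is below 1 in uninjured CD44low libraries, with a median of 0.739.

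Other genes of the nuclear envelope were counted over lists by function. Their counts stand beside the shares of all genes tested, of which 24.7% were higher and 21.3% lower in CD44high Tregs of uninjured mice and 20.1% and 17.2% in injured mice. Of the inner membrane and LEM domain list, all 7 were tested and 3 were higher in CD44high Tregs in uninjured and in injured mice. These were NRM (nurim, log2 1.61 ± 0.14 and 0.72 ± 0.14, SE), TMPO (lamina-associated polypeptide 2, log2 0.85 ± 0.09 and 0.44 ± 0.08, SE) and ANKLE1, a LEM domain nuclease (log2 4.82 ± 0.83 and 3.39 ± 0.74, SE). ANKLE1 was low throughout, so its folds rest on few counts. Its means were 5.61 and 3.00 CPM in CD44high and 0.17 and 0.25 CPM in CD44low Tregs of uninjured and injured mice. NRM also fell after injury in CD44high Tregs by 0.80 on the log2 scale (adjusted p = 0.00342, edgeR). Other LINC and KASH-like genes were tested in 7 of 12 cases and 2 were higher in each CD44 comparison, TMEM43 and TOR1AIP2 in uninjured and TOR1AIP2 and TOR1B in injured mice, all by log2 0.44 or less.

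Of 7 genes of lamin processing, 2 were higher and 1 was lower in both CD44 comparisons, shares near those of all genes. FNTB, the beta subunit of farnesyltransferase, which lipidates lamins among other proteins, was lower in CD44high Tregs by log2 -1.57 ± 0.20 in uninjured and -1.40 ± 0.19 in injured mice (SE). NARF, which binds prelamin A, was higher in both (log2 0.52 and 0.53), RCE1, a protease of prenylated proteins, in uninjured mice (log2 0.42), and ZMPSTE24, the protease that matures lamin A, in injured mice (log2 0.38). Of 4 heterochromatin partners of LBR, CBX5 (HP1 alpha) was higher in CD44high Tregs, by log2 1.14 ± 0.21 and 0.88 ± 0.20 (SE). Of the same 4, PRR14 rose after injury in CD44low Tregs, with overlapping groups (log2 0.37, adjusted p = 0.0317, edgeR). Of all genes tested, 4.24% rose there.

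Of 31 nuclear pore genes, 6 were higher and 9 lower in CD44high Tregs of uninjured mice, and 4 and 6 in injured mice. Of all genes tested, 24.7% were higher and 21.3% lower in uninjured mice, and 20.1% and 17.2% in injured mice. NUP62, of the central channel, was higher by log2 1.17 ± 0.13 and 0.74 ± 0.12 (SE). NUP153, of the nuclear basket, was lower in uninjured mice, at log2 -1.20 ± 0.23 (SE, adjusted p = 0.000156, edgeR). It was lower in injured mice too, at log2 -0.74 ± 0.22 (SE, adjusted p = 0.00945, edgeR), where the groups overlapped. Of 10 cytoskeletal partners of nesprins, 1 was higher and 2 lower in uninjured, and 1 and 4 in injured mice. NDE1, a dynein regulator, was the higher one (log2 0.80 ± 0.14 and 0.63 ± 0.13, SE), and PAFAH1B1, its partner LIS1, was lower in both (log2 -0.65 and -0.33). PLEC, plectin, which links nesprin-3 to intermediate filaments, fell after injury in CD44high Tregs by 0.73 on the log2 scale (adjusted p = 0.00631, edgeR). Of 5 SRF and YAP factors, 3 were tested, of which 0 were called in uninjured and 1, lower, in injured mice by edgeR. SRF itself was at log2 -0.23 ± 0.13 (SE, adjusted p = 0.158, edgeR) and 0.12 ± 0.12 (SE, adjusted p = 0.492, edgeR).

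**Figure D4:**
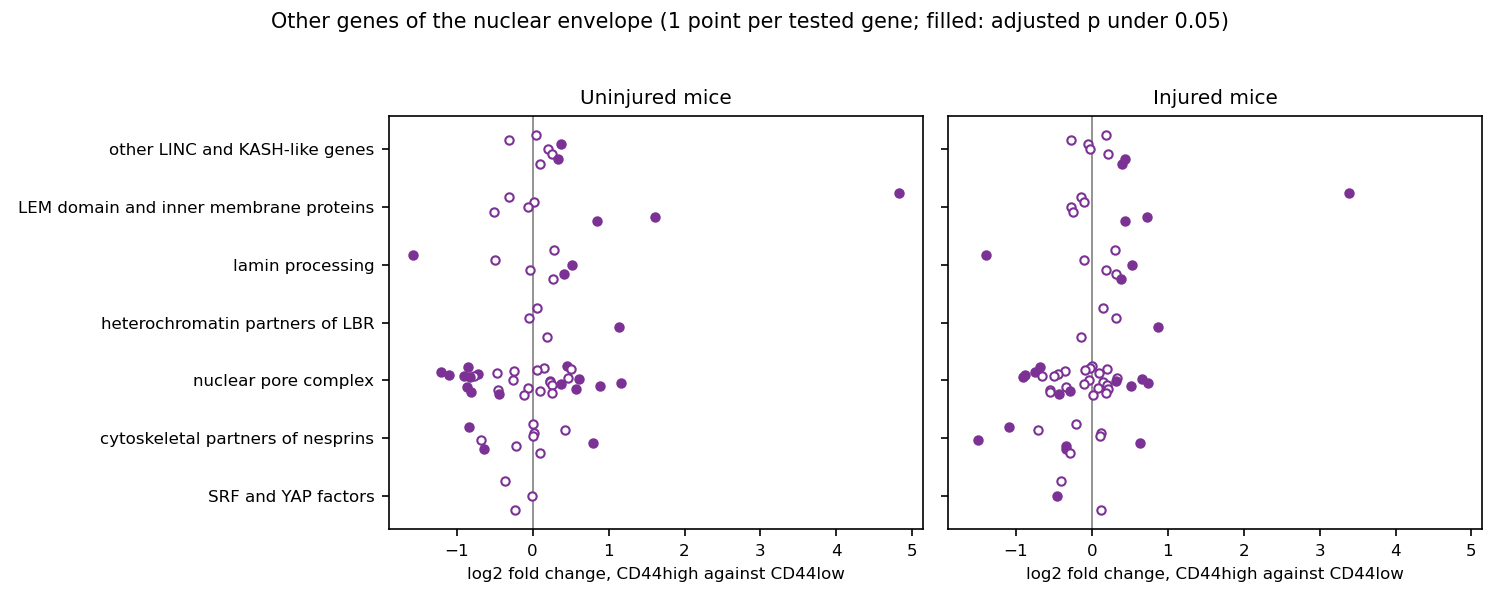
Log2 fold changes, CD44high against CD44low, of the tested genes of 7 lists of the nuclear envelope and its partners in uninjured (left) and injured (right) mice; each point is 1 gene and filled points have an adjusted p under 0.05. ANKLE1 stands farthest to the right, at 4.82 and 3.39, FNTB farthest to the left in uninjured mice, at -1.57, and nuclear pore genes fall on both sides of 0. ANKLE1 had means of only 0.17 and 0.25 CPM in CD44low Tregs of uninjured and injured mice.

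The genes whose log2 CPM followed LMNA most closely over the 19 libraries were FAM234A (Pearson r = 0.987), TCF19 (0.983), KIF20A (0.982), FGL2 (0.982) and GM2A (0.981). Those closest to SUN2 were NXPE3 (0.917), GIMAP8 (0.901), AKAP11 (0.897), PVR (0.897) and PP2D1 (0.890). These correlations run over 4 groups that differ in CD44 class and injury and are a description of the group pattern.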

How the data were processed

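Gene counts of 19 libraries of sorted lymph node Tregs were deposited by the authors as unnormalized read counts, 1 column for each library. The authors counted reads with STAR in the VIPER workflow. The submitters' processing notes name STAR 2.5, bcl2fastq 2.18 and the builds mm9 and mm10, without roles. The annotation is not given in the sources used. Library strandedness was not used, so overlapping genes cannot be told apart.

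The 10 members, the gene lists and the markers were chosen with earlier results of these data known. The other genes named are, per list and comparison, up to 3 of smallest p among those called without overlap of groups, genes that did not pass given with their values, and the 5 genes closest to LMNA and to SUN2. Lists were inner membrane and LEM domain, other LINC and KASH-like, lamin processing, heterochromatin partners, nuclear pore, cytoskeletal partners, SRF and YAP factors and proliferation, and markers of T, B, myeloid, neutrophil, CD8 and NK, and stromal cells.

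Counts were analysed with R 4.3.3 and edgeR 4.0.16 (filterByExpr with a minimum count of 10, TMM, 1 mean for each of 4 groups, quasi-likelihood test, two-sided) and Benjamini-Hochberg adjustment over 11464 genes. Genes were called at an adjusted p under 0.05. CPM are counts scaled to the library's total over the genes that passed the filter, times its TMM factor, and log2 CPM used a prior count of 2. Comparisons within CD44 classes and within injury groups share libraries. Totals ran from 5582234 to 9433610 counts, and no interval from counts is given. Exon lengths are from GENCODE vM21 and promoters from RefSeq, and protein sequences were not used here. Alternatives were DESeq2 1.42.0, other normalization, filters, call rules and sample sets, a replicate block and each library left out, and taking out each library's trend on length or GC content was added after seeing the data. Not all same-numbered samples deviated together and the labels name no pairing, so numbers were not used as pairs. Figures used Python 3.11.15 and matplotlib 3.10.9.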

Additional observations from a re-analysis of the deposited data

Results flagged for a closer look

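Among the 40 sets of CPM (10 genes in 4 groups) searched on the log scale for a library far from the others, about 1 in 20 of which chance alone would mark, 1 was found. SYNE3 had 23.0 CPM in CD44high library 3 of injured mice, whereas the other 3 libraries of that group had 12.6 to 13.6 CPM. The call of SYNE3 between CD44 classes of injured mice was lost without this library.

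The change after injury differed between the CD44 classes for LMNA, by -1.51 on the log2 scale (CD44high minus CD44low), and for SUN2, by 2.37, both by the interaction term of edgeR.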

How the results depend on the processing

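LMNA and LMNB1 between CD44 classes in uninjured and injured mice, SUN2 in uninjured mice, SYNE2 in both, LBR in uninjured and EMD in injured mice, LMNA and SUN1 after injury in CD44high Tregs and SUN1 and SUN2 after injury in CD44low Tregs kept their direction and an adjusted p under 0.05 in every refit, and so did the interactions of LMNA and SUN2. The number of members called moved with the call rule. At a p under 1e-06 and 2-fold it was 3 of 10 in uninjured and 2 in injured mice. For injury it was 1 in each CD44 class, and for the interaction 0. Under that rule 951, 688, 17, 14 and 10 of 11464 genes were called. At an adjusted p under 0.05 and 2-fold it was 1 for injury in CD44high and 2 in CD44low Tregs, where 86 and 143 of 11464 genes were called. With the 3 second-number libraries as the only injured CD44low libraries, 2 members were called for injury in CD44low Tregs, and 445 of all genes tested.

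Signs turned for small differences that were not called. With the replicate block SYNE1 was at -0.13 between classes of injured mice and -0.040 for injury in CD44high Tregs. With the second-number libraries alone, SUN2 and SYNE1 were at -0.21 and -0.17 between classes of injured mice, LMNA at -0.13 for injury in CD44low Tregs and SYNE2 at 0.023 for the interaction. Without those libraries LBR was at 0.0035 for injury in CD44low Tregs, and without the trend on length SYNE2 was at 0.15. Leaving out single libraries gave LMNB2 from -0.23 to 0.051 between classes of uninjured mice and from -0.18 to 0.10 for injury in CD44high Tregs, SUN2 from -0.27 to 0.29 and SYNE1 from -0.26 to 0.37 between classes of injured mice, SYNE1 from -0.32 to 0.22 for injury in CD44high Tregs and SUN1 from -0.13 to 0.028 for the interaction. The cause of these turns was not tested.

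Same-numbered samples correlated in their deviations from group means at -0.0068 to 0.119 between classes of uninjured mice, at 0.167 (2), 0.101 (4 with 4_2), 0.116 (5) and -0.054 (5 with 5_2) between classes of injured mice, and at -0.120 to 0.018 between injured and uninjured mice. Other pairs of injured mice reached 0.410 and -0.452, and the numbers were not taken as pairs. With the replicate block SUN1 in uninjured mice (adjusted p = 0.0560, edgeR), SYNE3 in injured mice (adjusted p = 0.0692, edgeR) and SYNE3 for injury in CD44low Tregs (adjusted p = 0.0551, edgeR) were not called, and the count over all genes for injury in CD44low Tregs was 440 instead of 871. Counts over all genes moved most for injury and the interaction. For injury in CD44high Tregs the count was 273, 476 with DESeq2, 601 with only the groups compared, 476 with libraries 1 and 1_2 and 5 and 5_2 summed and 581 without the second-number libraries. It was 167, 158 and 170 without uninjured CD44high library 2, 3 or 5 and 153 and 152 without injured CD44high library 2 or 5. For injury in CD44low Tregs it was 1451 with DESeq2, 463 with only the groups compared, and 1748 without and 445 with only the second-number libraries. It was 1893 without injured CD44low library 5_2, 554 and 547 without 1 or 1_2, and 510 without uninjured CD44low library 1. For the interaction it was 74, 217 with DESeq2, 314 and 136 without and with only those libraries and 120 without the trend on length, and 43 without injured CD44high library 5. With 2-fold added, the counts fell from 5280 to 2306 and from 4283 to 1666 between the classes of uninjured and injured mice, and to 86 and 143 for injury. At the lowest, LMNA rested on 50 counts and SYNE3 on 24 counts in a library.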
